A study of Mus musculus with 21 samples.

Results

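Transcripts of ion channels and ion pumps were examined in Ba/F3, a murine line of early B cell precursors that needs interleukin 3 to grow. The members are all array probes whose gene label begins with a symbol root of potassium channels (KCN), voltage-gated calcium channels (CACN), voltage-gated sodium channels (SCN), TRPC, TRPM or TRPV channels, CLC chloride channels and transporters (CLCN), the sodium/potassium pump (ATP1A, ATP1B) or the calcium pumps (ATP2A, ATP2B, ATP2C). This rule found 177 of the 30854 gene labels on the array, read by 344 of its 45281 probes, and it used no measured value. The name roots also take in subunits and regulators, such as the Kcnab subunits and Kcnrg. The ATP1 and ATP2 pumps and part of the CLC family move ions against a gradient, and the channels are pores through which ions flow down their gradients.

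Sodium/potassium pumps of the plasma membrane keep sodium low and potassium high in the cytosol, and the potassium channels, which let potassium leave again, set most of the membrane potential. Calcium is kept low in the cytosol by pumps of the endoplasmic reticulum (SERCA, encoded by the Atp2a genes), of the plasma membrane (PMCA, Atp2b) and of the Golgi (SPCA, Atp2c), so that opening a calcium channel gives a signal. In lymphoid cells, calcium released from the endoplasmic reticulum and refilled by SERCA carries antigen and cytokine receptor signals. Voltage-gated calcium and sodium channels are best known from nerve and muscle.

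The study applied digital microfluidics, in which droplets that hold the cells are moved by switching voltages on insulated electrodes. Total RNA was measured on Illumina BeadChips in 7 groups of 3 arrays, in a pair of batches. Batch A held cells actuated on the device for 15 min at 400 Vpp and 18 kHz, cells actuated likewise at 1 kHz, and untreated cells. Batch B held cells heated for 15 min at 42, 47 or 52 °C and its own untreated cells. All groups were Ba/F3 cells with no further genetic change stated. No label says that replicates were separate cultures, so a p-value here measures only how far these samples spread, which may be technical, and no label gives the time from treatment to lysis.

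A batch took up a pair of beadchips, and with 3 arrays per group every value has limited precision. Arrays of 18 kHz cells were dim. Their 95th percentiles of bead intensity were 732.7, 277.4 and 1110.7, against 1401.8 to 1857.1 at 1 kHz and 1482.4 to 1524.2 in untreated cells. An array detected 9420 to 14355 probes in batch A, and 12004 to 13234 probes if it belonged to batch B. Of 13 marker genes of Ba/F3 cells 9 were detected in each batch, among them the interleukin 3 receptor chains Il3ra and Csf2rb. Of 10 measured B lineage markers only Cd79b was, and Cd79a was not. None of 7 fibroblast or 5 neuron markers was detected, and of the T cell and muscle lists only Cd3d, Ckm and, in batch B alone, Acta1 were. No marker probe was called at 18 kHz or 1 kHz, where 2.94% and 0% of all probes were. Acta1 was at least 1.32-fold higher at 42 °C (adjusted p = 0.00485 in limma), 1 Cd79b probe was higher by 0.88 at 47 °C (adjusted p = 0.00182), and at 52 °C probes of Cd44 and Csf2rb fell by 1.09 and 1.28 (adjusted p = 0.0155 and 0.00393). As a check of the treatments, the immediate early gene Fos fell by 6.33 log2 at 18 kHz (adjusted p = 0.000111), where 2 of 3 arrays detected it. Of 6 probes for heat shock and immediate early genes 4 were higher and 2 lower at 42 °C, with the heat shock gene Dnajb1 up by 3.94 log2 (adjusted p = 2.02e-09). At 47 °C and at 52 °C 0 of the 6 were higher and 2 were lower, so the heat shock genes were called at 42 °C and at neither of the higher temperatures.

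Most channel genes gave no signal above background. Of all classes only the calcium pumps had a larger share of probes detected than all probes in both batches. A probe counted as detected on an array when the detection p-value in the deposited table, which counts the negative control beads as bright as the probe or brighter, was below 0.01. A probe was tested in a batch when detected on at least 3 of its arrays. By this measure 32 member probes (9.3%) were tested in batch A and 30 (8.72%) in batch B, against 31.2% and 30.4% of all probes. They stood for 24 and 23 gene labels. Of the 344 probes 36 were tested in either batch and 26 in both. Another 45 were detected on 1 or more arrays but tested in no batch, and 263 were detected on none of the 21 arrays. At the edge of this filter stood 3 probes detected on exactly 3 arrays of batch A and 4 of batch B, against 6 and 7 probes detected on exactly 2 arrays.

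Among calcium pumps 6 of 9 genes were tested in at least 1 batch, with 9 of 20 probes in batch A and 8 of 20 in batch B. The sodium/potassium pump had 3 of 7 genes tested, with 42.9% and 28.6% of its probes in batches A and B. The CLC family had 4 of 9, with 33.3% and 27.8% of its probes. Of all probes 31.2% and 30.4% were tested. Potassium channels had 9 of 91 genes tested, calcium channels 3 of 25, sodium channels 2 of 14 and TRP channels 1 of 21. Genes with no probe detected on any array included the calcium channel pores Cacna1a to Cacna1d, the sodium channel pore Scn8a, the large-conductance potassium channel Kcnma1 and the heat-activated TRP channels Trpv1, Trpv3 and Trpv4. Trpm7, a magnesium- and calcium-permeable channel fused to a kinase, was detected on 2 arrays of batch A and 1 of batch B, and so fell short of the test. A gene below detection here is not shown to be silent, since a probe reports only the transcript region it binds.

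**Figure D1:**
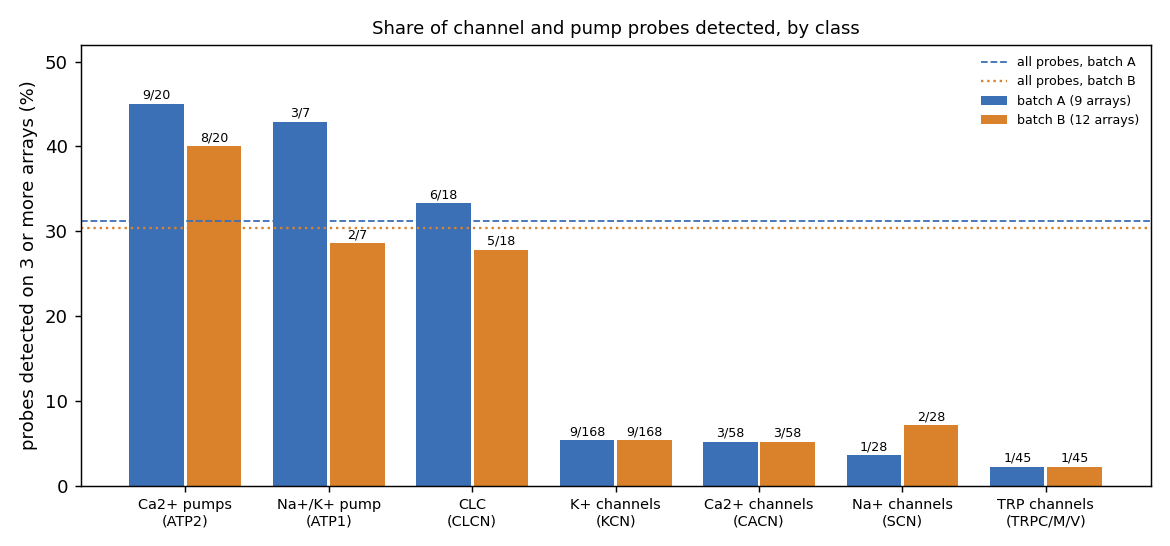
Share of probes (%) detected on at least 3 arrays of a batch, by class, with the number of probes above each bar (batch A blue, batch B orange) and dashed and dotted lines at the share of all probes. Calcium pumps reach 45% and 40%, against 31.2% and 30.4% of all probes, and the 4 channel classes on the right lie between 2.22% and 7.14%.

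Members that no comparison called are described first, which does not show that they were steady. Levels are given as log2 normalized intensity, and no level is set against that of another probe. Atp1b3, a subunit that carries the sodium/potassium pump to the membrane, was detected on all 21 arrays. It ran from 11.62 to 11.95 over the 9 arrays of batch A, and over batch B from 11.80 at its lowest, at 42 °C, to 12.42 at its highest, at 52 °C. Its 42 °C arrays, at most 11.93, lay below all untreated arrays of that batch, at 12.14 to 12.21. No comparison called a probe of the sodium/potassium pump.

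Trpv2, the only TRP channel tested, is a calcium-permeable channel of blood cells that in the rat protein opens at noxious heat. It read 9.26, 9.26 and 9.23 at 18 kHz, 8.98, 9.12 and 8.92 at 1 kHz and 9.03, 9.04 and 9.24 in untreated cells. At 52 °C its arrays read 8.02, 8.01 and 8.0, against 8.60, 8.13 and 8.27 in untreated cells, and the other heated arrays lay between 7.80 and 8.38. Each 52 °C array thus lay below each untreated array, but no comparison called Trpv2. Cacna1f, a pore subunit of L-type calcium channels, was also detected on every array. Its levels were 8.83 to 9.28 at 18 kHz, against 8.97 to 9.25 in untreated cells. At 52 °C they were 9.23, 8.03 and 8.24, against 9.20, 9.22 and 8.98 in untreated cells, so that 1 of the 3 heated arrays stayed at the untreated level. Kcnn4, the calcium-activated potassium channel of lymphocytes, was tested in both batches and ran from 6.34 to 7.06 (batch A) and from 5.89 to 6.86 (batch B), with no call. Scn3b, an accessory subunit of sodium channels, was near background, at 5.13 to 6.79 (batch A) and 4.55 to 5.79 (batch B), again with no call.

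With 18 kHz set against untreated cells, the question was which channel and pump transcripts the higher frequency moved. Atp2a3, which encodes the SERCA3 calcium pump of blood cells, was higher on both of its brighter probes, and 1 probe of the potassium channel Kcnq5 was higher. In all 3 of 32 member probes were called at an adjusted p below 0.05 in limma's fit (9.38%), against 2.94% of all 14130 probes tested. All 3 were higher, against 1.28% of all probes called higher and 1.66% called lower. Both Atp2a3 probes read 1 gene. Kcnq5 would not have passed the detection filter without its 18 kHz arrays, so the member share rests partly on that choice. The median change was 0.08 over the member probes and -0.08 over all probes. Fewer cells of a type and less RNA per cell cannot be told apart in such bulk samples. Quantile normalization gives every array the same distribution. When each array was instead scaled by its median, the change of the median probe between 18 kHz and untreated cells was -1.09 log2, so the rises given here are relative to the other probes.

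Atp2a3 probe 60288 read 10.61, 10.74 and 10.55 at 18 kHz, 9.87, 10.08 and 9.97 at 1 kHz and 10.16, 9.91 and 10.03 in untreated cells. Probe 2570672 of Atp2a3 read 12.43, 12.69 and 11.98 at 18 kHz, 11.48, 11.52 and 11.45 at 1 kHz and 11.57, 11.41 and 11.47 in untreated cells. On both probes every 18 kHz array lay above every other array of the batch, and the 1 kHz and untreated arrays overlapped. The changes at 18 kHz relative to untreated cells were 0.60 ± 0.12 (SE, n = 3 arrays per group; adjusted p = 0.0425 in limma) and 0.88 ± 0.17 (adjusted p = 0.0416), or 1.516-fold and 1.846-fold. After median scaling the Atp2a3 values had the opposite sign, -0.65 and -0.18, against -1.09 for the median of all probes. Against 1 kHz the probes changed by 0.66 ± 0.12 (adjusted p = 0.0369) and 0.88 ± 0.17 (adjusted p = 0.0427), and there too median scaling turned the sign, to -0.60 and -0.18.

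Before normalization the bead intensities of Atp2a3 probe 60288 were 977, 372.9 and 1433.1 at 18 kHz, against 1497.2, 1251.5 and 1347.6 in untreated cells. Those of probe 2570672 were 3600.6, 1440.7 and 3774, against 3804.6, 3298.2 and 3420.2. The raw values therefore overlapped or lay lower at 18 kHz, while the 95th percentiles of the same arrays were lower still, at 277.4 to 1110.7. The remaining Atp2a3 probe, 6370594, was dim, detected on 1 of 3 arrays at 18 kHz and on all 3 untreated ones, and its change of -0.73 was not called. Without both dimmer 18 kHz arrays, replicates 1 and 2, the bright probes changed by 0.52 (adjusted p = 0.207) and 0.50 (adjusted p = 0.166), not called, but this leaves 1 array at 18 kHz, which is assumed to vary like the other groups. With the beadchip as a block they changed by 0.64 (adjusted p = 0.0587) and 0.88 (adjusted p = 0.0773), and within beadchip A2, the only one with untreated arrays, by 0.61 (adjusted p = 0.317) and 0.85 (adjusted p = 0.323). In fits within a beadchip, a group with 1 array is assumed to vary like the others.

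Kcnq5 encodes a slowly activating potassium channel of the M-current family, known from neurons and muscle. Its probe 6770722 read 6.41, 7.42 and 6.39 at 18 kHz, 5.06, 5.03 and 5.0 at 1 kHz and 4.98, 4.94 and 5.42 in untreated cells. All 3 arrays at 18 kHz detected it, none did at 1 kHz and 1 of 3 did in untreated cells, and the 18 kHz group overlapped neither of the others. The change was 1.63 ± 0.27 (SE, n = 3 per group, adjusted p = 0.0252 in limma) relative to untreated cells. Relative to 1 kHz, where no array detected it, the change was at least 2.39-fold (adjusted p = 0.0235). A bound of this kind sets each undetected array at the lowest level detected on it, or at the probe's own level where that is higher. By the same rule the change relative to untreated cells, 2 of whose arrays were undetected, was at least 2.38-fold. Bounds in this report hold only for the background removal and quantile normalization used here, and other settings, given below, gave smaller changes of Kcnq5. The lowest detected levels were 5.94, 6.84 and 5.49 on the 18 kHz arrays, against 5.35 to 5.61 on the untreated ones. The probe passed the detection filter only through its 18 kHz arrays, so that a difference between the groups was built into its choice. Its adjusted p was 0.0541 with no filter.

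The bead intensities of Kcnq5 probe 6770722 before background removal were 164.8, 128.2 and 165.9 at 18 kHz, 143.6, 165 and 176 at 1 kHz and 152.4, 144.1 and 159.8 in untreated cells. The groups overlapped on this raw scale, and the median probe of the array read 133.3, 109.3 and 116.6 at 18 kHz, against 136.2 to 142.3 in untreated cells. Without background removal the change was 0.55 (adjusted p = 0.0303), and after median scaling it was 0.69 (adjusted p = 0.146). Of the remaining Kcnq5 probes 1 was detected on no array and 1 on a single array of batch B. The part of the array brightness in these values was not tested.

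Leaving out any 1 untreated array, or the first 18 kHz replicate, ended the call of each of these 3 probes against untreated cells, with adjusted p up to 0.161, and leaving out the second 18 kHz replicate also ended that of Atp2a3 probe 60288. Without the third 18 kHz replicate 10 member probes were called, 7 higher and 3 lower. Next in order of p stood Kcnab2, an accessory subunit of voltage-gated potassium channels. It read 10.34, 10.92 and 9.78 at 18 kHz, against 9.42, 9.56 and 9.63 in untreated cells, with no overlap. Its difference of 0.81 ± 0.25 did not pass (adjusted p = 0.0901 in limma) and was -0.44 after median scaling. Clcn3 probe 4070301 read 8.66, 9.27 and 8.35 at 18 kHz, against 8.20, 8.09 and 8.10 in untreated cells. This difference of 0.63 ± 0.21 did not pass either (adjusted p = 0.109) and was -0.68 after median scaling. Clcn3 encodes a chloride/proton exchanger of endosomes.

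**Figure D2:**
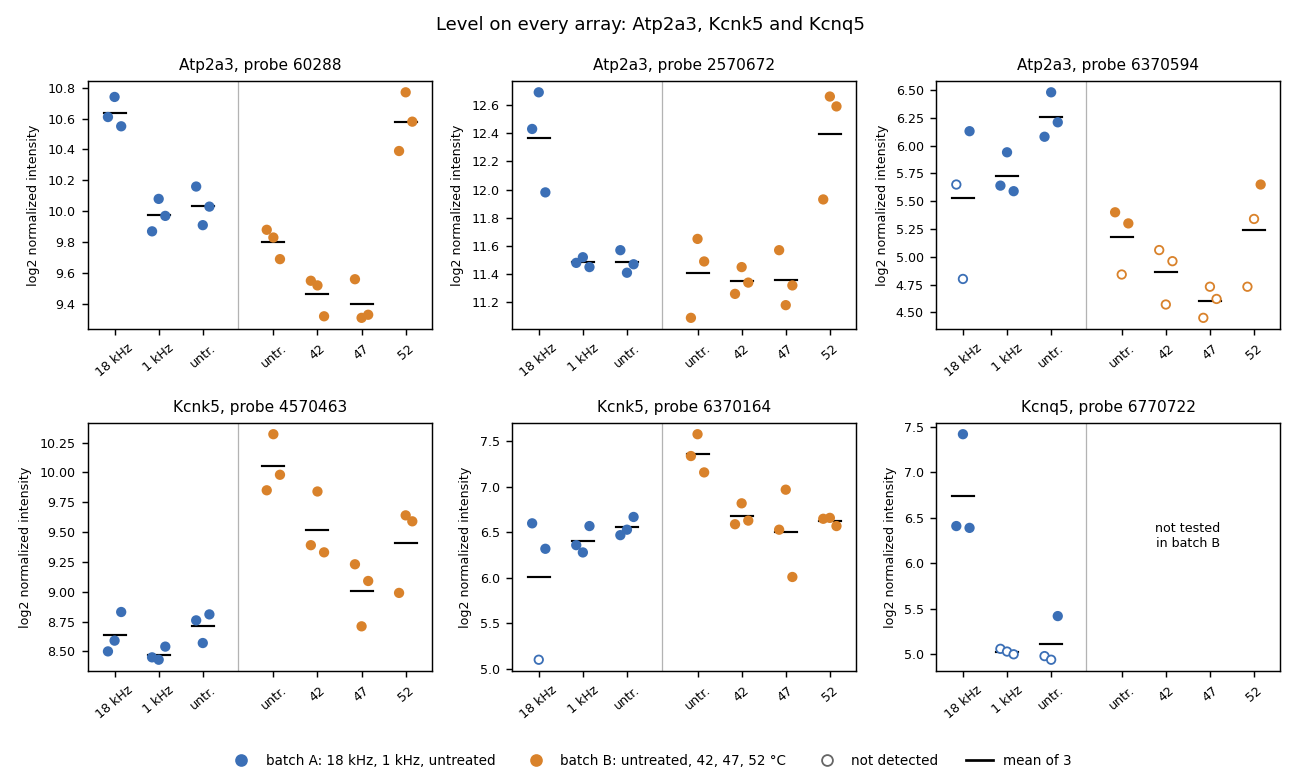
Level (log2 normalized intensity) of 6 probes on every array, batch A in blue (18 kHz, 1 kHz, untreated) and batch B in orange (untreated, then 42, 47 and 52 °C), with open circles for arrays without detection and a bar at the mean of 3. Atp2a3 probes 60288 and 2570672 are highest within their batch at 18 kHz and at 52 °C, where median scaling gives -0.65 and -0.18 at 18 kHz, and Kcnk5 probe 4570463 is lowest within batch B at 47 °C, at 8.71 to 9.23 against 9.85 to 10.32 in untreated cells.

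Actuation at 1 kHz called no channel or pump probe. Of 32 member probes tested 0 passed in limma, against 0 of 14130 probes (0%), and at an unadjusted p below 0.05 stood 1 member probe and 251 of all probes. The member changes ran from -0.54 to 0.20, with a median of -0.08 against -0.04 over all probes. The smallest p belonged to Clcn3 probe 5690064, which read 6.6, 6.70 and 6.69 at 1 kHz and 7.05, 7.10 and 7.21 in untreated cells. The groups did not overlap, yet the difference of -0.46 ± 0.16 had an adjusted p of 1. The next 4 were Kcnk5 (-0.24 ± 0.13), Atp2a3 probe 6370594 (-0.54 ± 0.30), Atp2c1, the calcium pump of the Golgi (-0.37 ± 0.21), and Atp2a2 probe 940730, for SERCA2 (-0.45 ± 0.27), each also with an adjusted p of 1. With SE of this size the data do not show that 1 kHz left these transcripts alike.

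The direct comparison of 18 kHz with 1 kHz called the same 3 probes, Kcnq5 and both bright Atp2a3 probes, all higher at 18 kHz. That is 9.38% of 32 member probes, against 2.41% of all probes (1.45% higher and 0.955% lower). The comparison shares its 18 kHz arrays with the one against untreated cells, and Kcnq5 was again tested only through those arrays. The median change was 0.17 over the members and -0.08 over all probes, and median scaling moved the median of all probes by -1.13. The differences of Clcn3 probe 4070301 (0.76 ± 0.21, adjusted p = 0.0811) and Kcnab2 (0.80 ± 0.25, adjusted p = 0.1) did not pass in limma and became -0.59 and -0.48 after median scaling. Within beadchip A1, which held 1 array at 18 kHz and 2 at 1 kHz, Atp2a3 probes 60288 and 2570672 differed by 0.69 (adjusted p = 0.013) and 0.96 (adjusted p = 0.00376), and Kcnq5 was called higher (adjusted p = 0.00124). Within beadchip A2 the Atp2a3 values were 0.56 and 0.81, and the adjusted p of all 3 probes was 0.683.

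The heat series asked which transcripts changed with temperature alone. The 3 heated groups were compared with the same untreated arrays of batch B. At 42 °C 1 of 30 member probes was called, higher (3.33%), against 2.38% of all 13773 probes (1.18% higher and 1.21% lower). This was Kcnj14, which passed the detection filter through its 42 °C arrays alone, so the member share rests on that choice. At 47 °C 4 of 30 were called (13.3%), 1 higher and 3 lower, against 7.83% of all probes (3.42% higher and 4.41% lower). At 52 °C 8 of 30 were called (26.7%), 6 higher and 2 lower, against 12.8% of all probes (6.55% higher and 6.24% lower). Some of these calls are probes of the same gene, so that the 8 stand for 7 genes. The member medians were 0.02, -0.14 and -0.03 at 42, 47 and 52 °C, against 0, -0.01 and -0.01 over all probes. Scaling by the median instead moved the median of all probes by -0.15, -0.46 and -0.43 at these temperatures.

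Atp2a3 rose at 52 °C on both of its bright probes, and no Atp2a3 probe was called at 42 or 47 °C. Probe 60288 read 9.88, 9.83 and 9.69 in untreated cells, 9.55, 9.52 and 9.32 at 42 °C, 9.56, 9.31 and 9.33 at 47 °C and 10.39, 10.77 and 10.58 at 52 °C. Probe 2570672 read 11.09, 11.65 and 11.49 in untreated cells, 11.26, 11.45 and 11.34 at 42 °C, 11.57, 11.18 and 11.32 at 47 °C and 11.93, 12.66 and 12.59 at 52 °C. All 52 °C arrays lay above all other arrays of the batch on both Atp2a3 probes, while the 42 and 47 °C arrays overlapped each other. On probe 60288 each 42 and 47 °C array also lay below each untreated array. Relative to untreated cells the 52 °C changes were 0.77 ± 0.14 (SE, n = 3 per group; adjusted p = 0.00668 in limma) and 0.98 ± 0.21 (adjusted p = 0.0125). Relative to 47 °C they were 1.18 ± 0.14 (adjusted p = 0.00326) and 1.04 ± 0.21 (adjusted p = 0.0236), and the change of probe 60288 stood at rank 8 of all 13773 probes by p in that comparison. After median scaling the 52 °C changes kept their sign, at 0.23 (adjusted p = 0.428) and 0.43 (adjusted p = 0.173), but were not called.

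On these bright Atp2a3 probes no raw bead intensity at 52 °C lay below all untreated arrays, whereas some did at 18 kHz. Probe 60288 gave 1377.1, 1353.8 and 1202.1 at 52 °C, against 1148, 1230.7 and 1259.7 in untreated cells, and probe 2570672 gave 3727.3, 4789.4 and 4419.2, against 2531, 3952.5 and 4006.8. The groups overlapped on this scale, on arrays whose 95th percentiles were 846 to 1082.4 at 52 °C, against 1255.8 to 1537.2 in untreated cells. The call of probe 60288 held whichever of the 6 arrays was left out, with adjusted p up to 0.0361. That of probe 2570672 was lost without the second or the third 52 °C replicate, with adjusted p up to 0.0615. The dim probe 6370594 changed by 0.06 at 52 °C and was not called. SERCA2 was not called at any temperature. Atp2a2 probe 770349 read 8.23, 8.22 and 8.30 at 47 °C, below the 8.52 to 8.99 of untreated cells, and its change was -0.52.

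The plasma membrane pumps lay near background. Atp2b1, the most widely expressed of them, read 5.30, 5.47 and 5.13 at 47 °C, where 1 of 3 arrays detected it, against 6.03, 5.79 and 5.91 in untreated cells, where all 3 did. With the undetected arrays at their lowest detected level, the fall was at least 1.4-fold, or 0.49 log2, in the processing used here. The groups did not overlap, and Atp2b1 fell by 0.61 ± 0.17 (adjusted p = 0.0464 in limma). This call was lost whichever array was left out, with adjusted p of 0.06 to 0.151, and with an offset of 50 (-0.36, adjusted p = 0.0763) or without background removal (-0.17, adjusted p = 0.134). At 42 °C the difference was -0.40 ± 0.17 (adjusted p = 0.277) and at 52 °C -0.23. Atp2b2, known from hair cells and neurons, was detected on 0 of 3 arrays at 52 °C, at 4.41, 4.63 and 4.48, and on 2 of 3 untreated arrays, at 6.74, 5.02 and 5.73. With the processing used here it was at least 1.5-fold lower (adjusted p = 0.0481 in limma), with 1 untreated array well above the rest of its group. The call was lost without that array, the first replicate (adjusted p = 0.158), and in 5 of 6 cases in all. None of its other 4 probes was detected on any array.

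Kcnk5 encodes TASK-2, a background potassium channel of the tandem-pore family that is sensitive to pH and cell volume. It was the only member gene with 2 probes called lower at 47 °C. Probe 4570463 read 9.85, 10.32 and 9.98 in untreated cells, 9.39, 9.84 and 9.33 at 42 °C, 9.23, 8.71 and 9.09 at 47 °C and 8.99, 9.64 and 9.59 at 52 °C. Probe 6370164 read 7.34, 7.58 and 7.16 in untreated cells, 6.59, 6.82 and 6.63 at 42 °C, 6.53, 6.97 and 6.01 at 47 °C and 6.65, 6.66 and 6.57 at 52 °C. On both Kcnk5 probes the arrays of each temperature lay below every untreated array, and the 52 °C arrays overlapped those of both lower temperatures. The 42 and 47 °C arrays overlapped on probe 6370164, whereas on probe 4570463 each 47 °C array lay below each 42 °C array.

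At 47 °C the Kcnk5 changes were -1.04 ± 0.22 (SE, n = 3 per group; adjusted p = 0.0183 in limma) and -0.86 ± 0.21 (adjusted p = 0.0296). At 52 °C probe 6370164 fell by 0.73 ± 0.21 (adjusted p = 0.0377 in limma), and the change of -0.65 of probe 4570463 was not called. At 42 °C the values of -0.53 ± 0.22 (adjusted p = 0.267) and -0.68 ± 0.21 (adjusted p = 0.126) did not pass. Median scaling gave -1.57 and -1.39 at 47 °C (adjusted p = 0.000253 and 0.000468) and -1.16 and -1.18 at 52 °C (adjusted p = 0.00227 and 0.00144), against -0.46 and -0.43 for the median of all probes. The raw intensities of Kcnk5 probe 4570463 were 588.7, 418.5 and 632.6 at 47 °C, all below the 1123.7 to 1682.8 of untreated cells. Leaving out 1 array ended the 47 °C call of probe 4570463 in 4 of 6 cases (adjusted p up to 0.0778) and that of probe 6370164 in 5 of 6 (adjusted p up to 0.109). Within beadchip B1 the 47 °C changes were -1.0 and -1.10, and within B2 they were -1.14 and -0.37. At 18 kHz neither Kcnk5 probe was called.

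The promoters of Atp2a3 and Kcnk5 are printed because these were the genes with 2 probes called in 1 comparison. The 250 bases before the gene start are shown in the direction of transcription, from RefSeq on build GRCm38.p6, with CG dinucleotides, the sites of DNA methylation in mammals, in capitals. They lie at chr11:72960919-72961168 on the + strand and at chr14:20181783-20182032 on the - strand.
Atp2a3: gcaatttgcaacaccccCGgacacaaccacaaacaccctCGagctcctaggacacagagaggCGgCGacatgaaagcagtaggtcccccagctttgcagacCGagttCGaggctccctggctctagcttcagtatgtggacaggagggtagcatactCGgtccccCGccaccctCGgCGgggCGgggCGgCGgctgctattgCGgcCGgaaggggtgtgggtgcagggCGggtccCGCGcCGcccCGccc
Kcnk5: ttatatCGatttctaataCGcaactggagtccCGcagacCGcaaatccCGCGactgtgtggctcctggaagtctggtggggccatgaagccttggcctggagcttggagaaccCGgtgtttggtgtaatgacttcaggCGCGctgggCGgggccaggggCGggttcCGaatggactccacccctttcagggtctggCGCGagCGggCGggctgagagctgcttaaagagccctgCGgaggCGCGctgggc

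Both windows are rich in CG, with 20 in Atp2a3 and 19 in Kcnk5, against a median of 6 over 32851 promoters, and their GC contents were 66.8% and 62.8%, against a median of 52.4%. Paired sites of heat shock factor were searched on both strands in 300 bases, of which 50 lie after the start. The pair GAANNTTC occurs in 7.86% of all promoters and the pair TTCNNGAA in 8.52%. The AP-1 site TGANTCA, bound by dimers that contain Fos, occurs in 7.81%. None of these was found in the windows of Atp2a3 or Kcnk5. Of 28 tested member genes 20 had a promoter in the table. Among them Atp1b3 and Trpv2 held the pair GAANNTTC, Clcn7 and Trpv2 the pair TTCNNGAA, and none the AP-1 site. Such matches describe letters in a window and not binding.

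Probes of 2 CLC genes, Clcn3 and Clcn2, rose with heat. Clcn3 probe 6100451 read 6.46, 6.37 and 6.56 in untreated cells, 6.74, 6.99 and 6.65 at 42 °C, 7.12, 7.13 and 7.30 at 47 °C and 7.09, 7.71 and 7.79 at 52 °C. Each heated array lay above each untreated array, and each 47 °C array above each 42 °C array. Clcn3 rose on this probe by 0.72 ± 0.18 at 47 °C (SE, n = 3 per group; adjusted p = 0.0334 in limma) and by 1.07 ± 0.18 at 52 °C (adjusted p = 0.00444), or 2.095-fold. Median scaling gave 0.21 (adjusted p = 0.466) and 0.62 (adjusted p = 0.0388). The 52 °C call held whichever array was left out, with adjusted p up to 0.0268, and the 47 °C call was lost in all 6 cases, with adjusted p of 0.0613 to 0.113. Probe 4070301 of Clcn3 read 7.14, 8.48 and 8.38 at 52 °C, against 7.22, 7.01 and 7.18 in untreated cells. Probe 5690064 read 6.04, 6.56 and 6.65 at 52 °C, against 6.06, 5.97 and 5.97. On both, the first 52 °C replicate lay within the range of the untreated arrays, and neither probe was called.

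Clcn2, a chloride channel that opens on hyperpolarization and swelling, read 5.58, 5.89 and 5.82 in untreated cells, 6.51, 6.18 and 6.31 at 42 °C, 6.36, 5.97 and 5.70 at 47 °C and 6.92, 6.55 and 6.38 at 52 °C. The 42 and 52 °C arrays lay above all untreated ones, and the 47 °C arrays overlapped them. The rise of 0.85 ± 0.19 at 52 °C passed (adjusted p = 0.0159 in limma), and the differences of 0.57 ± 0.19 at 42 °C (adjusted p = 0.171) and of 0.61 ± 0.19 between 52 and 47 °C (adjusted p = 0.0926) did not. Its call was lost without the first untreated or the second 52 °C replicate, with adjusted p up to 0.0582, and median scaling gave 0.48 (adjusted p = 0.156). Clcn7, a chloride/proton exchanger of lysosomes, ran from 5.68 to 6.80 over batch B with no call. Clcn4 was tested only in batch A, on 3 arrays with detection, and was not called.

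**Figure D3:**
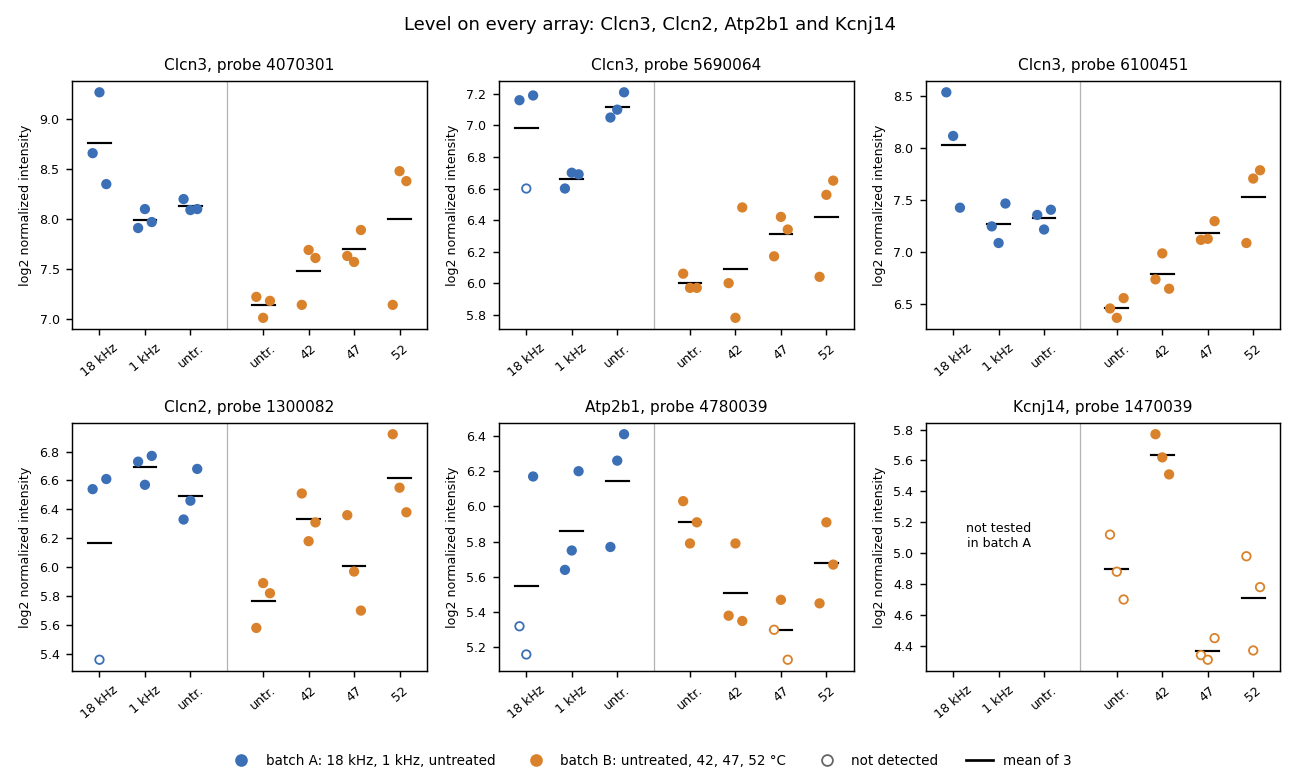
Level (log2 normalized intensity) of 3 Clcn3 probes, Clcn2, Atp2b1 and Kcnj14 on every array, batch A in blue (18 kHz, 1 kHz, untreated) and batch B in orange (untreated, then 42, 47 and 52 °C), with open circles for arrays without detection and a bar at the mean of 3. Clcn3 probe 6100451 climbs over the heat series to 7.09 to 7.79 at 52 °C, and Kcnj14 is detected at 42 °C only, at 5.51 to 5.77.

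Kcnj14 encodes an inwardly rectifying potassium channel known from motor neurons. It was detected on the 3 arrays at 42 °C and on no other of the 21 arrays. It read 5.12, 4.88 and 4.70 in untreated cells, 5.77, 5.62 and 5.51 at 42 °C, 4.34, 4.31 and 4.45 at 47 °C and 4.98, 4.37 and 4.78 at 52 °C. With the processing used here it was at least 1.36-fold higher at 42 °C than in untreated cells (adjusted p = 0.043 in limma). At 47 °C it was at least 1.22-fold lower than at 42 °C (adjusted p = 0.00172). The second of these calls held whichever array was left out and the first was lost in 5 of 6 cases, with adjusted p up to 0.188. Those fits kept the detection filter of the full batch. Without any 1 of its 42 °C arrays the probe would have fallen short of that filter, so its call was not shown to hold there. Acta1, a muscle marker, was likewise detected at 42 °C alone in batch B, and its part in these values was not tested. The raw intensities were 193.4, 145.6 and 166.8 at 42 °C, against 153.7, 141 and 141.7 in untreated cells, and overlapped. Without background removal the difference from untreated cells was 0.18 (adjusted p = 0.228 in limma), smaller than the bound above, which is 0.44 log2. The probe passed the detection filter through its 42 °C arrays alone, and its other probe was detected nowhere.

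The remaining calls at 52 °C were small. Kcnab3, an accessory subunit of voltage-gated potassium channels, read 7.87, 7.43 and 7.35 at 52 °C, against 7.0, 7.19 and 6.90 in untreated cells, without overlap. It rose by 0.52 ± 0.16 (adjusted p = 0.0495 in limma), was lost as a call whichever array was left out, with adjusted p of 0.0596 to 0.154, and stood at 0.04 after median scaling. Cacna2d3, an auxiliary subunit of calcium channels, read 6.21, 5.67 and 5.45 at 52 °C, against 5.13, 5.29 and 4.84 in untreated cells, where 1 of 3 arrays detected it. Its groups did not overlap, and the rise of 0.69 ± 0.20 passed (adjusted p = 0.0438 in limma). With the processing used here and the undetected arrays at their lowest detected level, the rise was at least 1.46-fold, or 0.54 log2. Without background removal it was 0.19 (adjusted p = 0.119), and 5 of 6 arrays ended the call when left out, with adjusted p up to 0.151. At 47 °C Cacna2d3 read 5.55, 5.84 and 5.98, also above all untreated arrays, but was not called.

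Between neighbouring temperatures few members differed. At 47 °C against 42 °C 1 of 30 member probes was called, Kcnj14, lower (3.33%), against 2.38% of all probes (1.08% higher and 1.3% lower). Kcnj14 was tested only through its 42 °C arrays. The next 4 by p were Atp2a2 probe 770349 (-0.52 ± 0.15, adjusted p = 0.0921), Cacna2d3 (0.64 ± 0.20, adjusted p = 0.126), Kcnrg, a regulator of potassium channels (0.56 ± 0.21, adjusted p = 0.187), and Atp2a2 probe 940730 (-0.47 ± 0.18, adjusted p = 0.200). None of these 4 passed in limma. At 52 °C against 47 °C 2 of 30 were called (6.67%), both of them Atp2a3 and higher, against 3.46% of all probes (1.73% higher and 1.74% lower). The differences of Clcn2, given above, of Atp2c1 (-0.62 ± 0.21, adjusted p = 0.117) and of Atp2a3 probe 6370594 (adjusted p = 0.130), which no 47 °C array detected, did not pass.

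**Figure D4:**
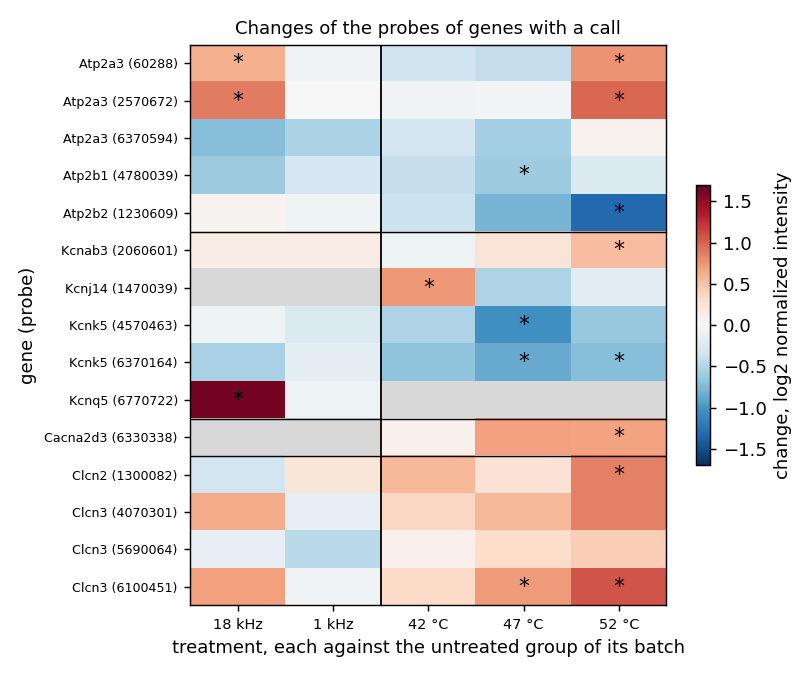
Change (log2 normalized intensity, red higher and blue lower than the untreated group of the same batch) of the 15 tested probes of the 10 genes with a call, at 18 kHz, 1 kHz, 42, 47 and 52 °C, with classes divided by lines (from the top, calcium pumps, potassium channels, calcium channels, CLC), an asterisk at an adjusted p below 0.05 and grey where a probe was not tested. The 1 kHz column has no asterisk, and the 52 °C column has 8; the red of Atp2a3 at 18 kHz turns to values below 0 (-0.65 and -0.18) after median scaling.

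Whether 18 kHz and heat acted differently on a transcript was tested as the difference of the 2 changes, each against the untreated cells of its own batch, with all 21 arrays normalized together. Against 42 °C 2 of 36 member probes were called, both with a higher change at 18 kHz (5.56%), against 1.51% of all 14901 probes (0.678% higher and 0.832% lower). Against 47 °C 1 was called, higher (2.78%), against 0.215% of all probes (0.107% in each direction). Against 52 °C 1 was called, higher (2.78%), against 0.799% of all probes (0.443% higher and 0.356% lower). These comparisons share the 18 kHz arrays and both untreated groups.

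Atp2a3 probe 60288 changed more at 18 kHz than at 42 °C by 0.98 ± 0.18 (SE; adjusted p = 0.00677 in limma) and than at 47 °C by 1.04 ± 0.18 (adjusted p = 0.0126), and the difference from 52 °C was not called. In the fits of each batch this probe changed by 0.6 at 18 kHz, -0.34 at 42 °C and -0.4 at 47 °C. Lower levels at 42 and 47 °C are thus part of these differences. After median scaling the difference from 42 °C became -0.15, where the median of all probes moved by -0.90. The same differences of probe 2570672, 0.98 ± 0.28 in both cases, did not pass (adjusted p = 0.0928 and 0.129). Kcnq5 probe 6770722 was called with a higher change at 18 kHz than at 42 °C (adjusted p = 0.0082) and than at 52 °C (adjusted p = 0.0258), and not called against 47 °C (adjusted p = 0.0812). It was detected on 0 of 12 arrays of batch B and was tested only through its 18 kHz arrays. These calls thus set 18 kHz arrays against batch B groups without detection, and no size is given. Leaving out both dimmer 18 kHz arrays leaves 1 array in that group, which is assumed to vary like the others. Kcnq5 was then called against 42 °C (adjusted p = 0.0289) and not against 52 °C (adjusted p = 0.0732). Atp2a3 probe 60288 then stood at 0.89 (adjusted p = 0.0857) and 0.95 (adjusted p = 0.129).

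Other members near the top of these tests did not pass. Against 42 °C these were Kcnj14 (adjusted p = 0.121), which batch A did not detect, and Cacnb2 probe 3120039, a beta subunit of calcium channels (0.93 ± 0.33, adjusted p = 0.176). Against 47 °C they were Atp2a2 probe 770349 (0.83 ± 0.22, adjusted p = 0.104) and Kcnk5 probe 4570463 (0.92 ± 0.26, adjusted p = 0.131). Against 52 °C they were Clcn2 (-1.13 ± 0.35, adjusted p = 0.108), Cacnb2 (0.98 ± 0.33, adjusted p = 0.136), Atp2b2 (adjusted p = 0.147), undetected at 52 °C, and Atp2b4, another plasma membrane calcium pump (adjusted p = 0.156), undetected at 18 kHz.

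**Figure D5:**
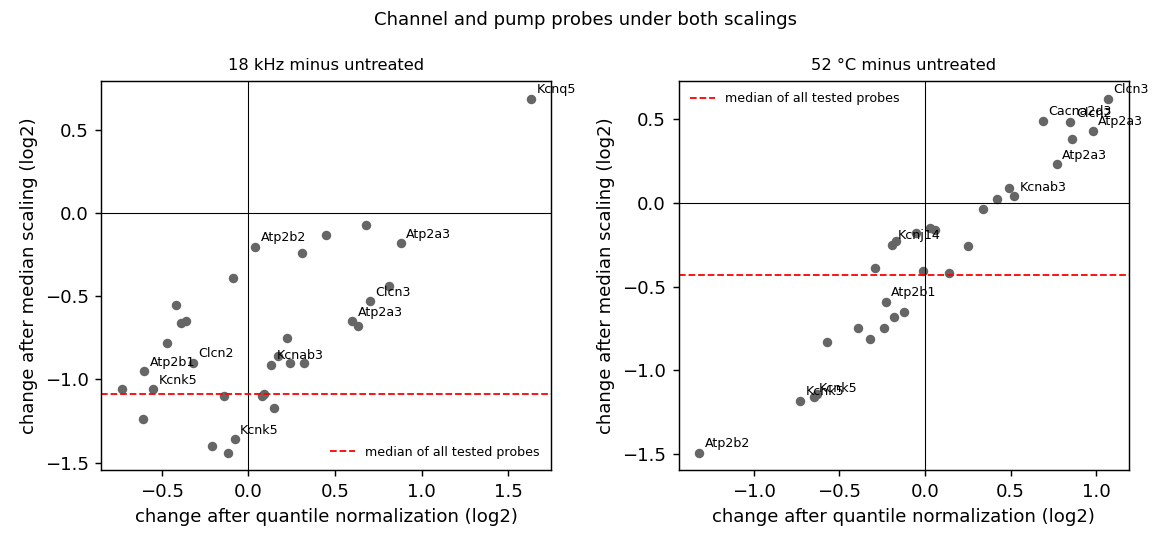
Change of each tested channel or pump probe (points) at 18 kHz and at 52 °C relative to untreated cells, after quantile normalization (x axis, log2) and after scaling each array by its median (y axis, log2), with the red line at the median of all probes under median scaling (-1.09 and -0.43). At 18 kHz only Kcnq5 lies above 0 on the y axis, at 0.69, and Atp2a3 lies at -0.18 and -0.65; at 52 °C Clcn3 probe 6100451 lies at 0.62 and Kcnk5 at -1.16 and -1.18.

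Genes that work with these channels and pumps were read from 6 lists, each with 12 to 22 probes tested in batch A. None of these probes was called at 18 kHz or 1 kHz, where 2.94% and 0% of all probes were. Of 11 probes for calcium release and store-operated entry 1 was higher at 47 °C, and at 52 °C 1 was higher and 1 lower, where 7.83% and 12.8% of all probes were called. These were probes of Stim1, the sensor of the calcium store that SERCA fills, and of the store's release channel Itpr2. Stim1 probe 7380703 stood at 6.07 ± 0.11 at 47 °C (SD, n = 3), at least 1.84-fold above untreated cells (adjusted p = 0.000385 in limma), of which no array detected it. In batch B it passed the detection filter through its 47 °C arrays alone, so that a difference between the groups was built into its choice. Stim1 probe 4570630 stood at 6.81 ± 0.22 at 52 °C, against 7.96 ± 0.49 in untreated cells (adjusted p = 0.0111). At 52 °C against 47 °C 2 of the 11 probes were lower, both of Stim1, against 1.74% of all probes called lower. Probe 4570630 differed by -1.49 (adjusted p = 0.0133 in limma). Probe 7380703, undetected at 52 °C, was at least 1.76-fold lower (adjusted p = 0.00434). Itpr2 stood at 8.73 ± 0.25 at 52 °C, against 7.95 ± 0.13 (adjusted p = 0.0214).

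Of 17 probes for other cation channels 2 were higher at 42 °C, where 2.38% of all probes were called, and 1 was lower at 52 °C, where 12.8% were. The first were both probes of P2rx7, an ATP-gated channel, at 6.02 ± 0.45 and 6.53 ± 0.61 at 42 °C (adjusted p = 0.00541 and 0.0428). They were at least 1.77-fold and 2.43-fold above untreated cells, where 0 and 1 of 3 arrays detected them. Their 42 °C arrays counted toward the detection filter, so a difference may be built into their choice. P2rx4, of the same family, stood at 5.16 ± 0.29 at 52 °C, against 6.13 ± 0.19 (adjusted p = 0.00722). Of 22 probes of the vacuolar proton pump 2 were lower at 47 °C, against 4.41% of all probes called lower, both of Atp6ap2, an accessory subunit, by 0.79 and 0.90 (adjusted p = 0.0365 and 0.0426), and 0 were called at 42 or 52 °C. Of 14 probes for other anion channels and volume control 1 was lower at 52 °C, against 6.24% of all probes called lower. It was of Wnk1, a chloride-sensing kinase, and at least 1.35-fold lower (adjusted p = 0.0379 in limma). None of 9 probes of ion exchangers and cotransporters, and none of 13 for other P-type ATPases, was called at any temperature. Of all probes 2.38%, 7.83% and 12.8% were called at 42, 47 and 52 °C. At 47 °C the list medians ran from -0.22 for the proton pump to 0.32 for calcium release, against -0.01 over all probes.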

How the data were processed

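Total RNA of Ba/F3 cells was hybridised to Illumina BeadChips. The authors deposited, per the file headers, a GenomeStudio table per batch with 1 mean bead intensity per probe and array, neither normalized nor corrected for background, and a detection p-value beside it. The deposited log2 table, centred by a method not given in the sources used here, served as an alternative, matched through batch B intensities. The beadchip position in the labels tied each array to its sample. Among the 12 arrays deposited for batch A, 3 fit no sample label and were left out, and 0 pairs of used arrays were identical.

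Both batches (9 and 12 arrays) were processed separately in R 4.3.3 with limma 3.58.1 and data.table (version 1.17.8). Normal-exponential background removal, fitted through the detection p-values with an offset of 16, was followed by quantile normalization and log2. Every probe with a detection p below 0.01 on 3 or more arrays of its batch was tested singly (14130 probes for batch A, 13773 for batch B). The test was limma's moderated linear model, two-sided, and p was adjusted by Benjamini-Hochberg over all probes of a comparison, with calls at 0.05. Changes at 18 kHz and under heat were compared in a fit of 14901 probes over all 21 arrays normalized together. There were 11 comparisons in all.

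Probes were named from the deposited accession (296 of 344), Entrez identifier (15), symbol (31) or synonym (2) through a RefSeq naming table, whose coordinates were not used. Named are the called members, the 5 with the smallest p where fewer than 4 passed, and the member with the highest mean of each class, except that some genes are not reported here. The members and lists were chosen with earlier results of these data known.

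Alternatives were no background removal, an offset of 50, median scaling, joint normalization of all arrays, a detection filter that was absent or asked for every array, 1 probe per gene, weighted arrays, a robust trended prior, fits of the compared arrays alone, blocks by beadchip or by replicate number, single beadchips, and the removal of each array or of both dimmer 18 kHz arrays. On simulated arrays, 49.5% of 200 changed probes among 14130 were found at 1 log2 and 89.5% at 2 for 18 kHz against untreated cells, 70% and 96% of 200 among 13773 for 42 °C, and 28.5% and 80% of 200 among 14901 for the difference between both changes, with at most 10 unchanged probes called. The simulation gave each probe 1 spread for all groups on the normalized scale and held no dim arrays. Among real arrays those of 18 kHz cells correlated at 0.925 to 0.977, against 0.994 to 0.995 in untreated cells of batch A. The simulated shares therefore do not show what was found or falsely called at 18 kHz. Protein sequences were not used here.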

Additional observations from a re-analysis of the deposited data

How the results depend on the processing

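Counts of member probes called in limma were 3 for 18 kHz against untreated cells, 0 for 1 kHz against untreated cells, 3 for 18 kHz against 1 kHz, 1, 4 and 8 at 42, 47 and 52 °C, 1 for 47 against 42 °C, 2 for 52 against 47 °C, and 2, 1 and 1 for the change at 18 kHz set against those at 42, 47 and 52 °C. Of 234 alternative counts 124 lay within 1.5 times these and 110 did not, and the 1 kHz count was 0 in all 19 of its alternatives. Median scaling gave 8 (0 higher, 8 lower) and 5 (0 higher, 5 lower) for 18 kHz against untreated cells and 1 kHz, against 3 higher and 0 lower in each case with quantile normalization, 12 (all lower) at 47 °C, 4 and 1 between temperatures, and 0 for the 3 differences between changes. It moved the median of all probes by -1.09 for 18 kHz against untreated cells, -1.13 against 1 kHz and -0.90 for 18 kHz set against 42 °C. In these comparisons 17 and 17 of 32 and 16 of 36 member changes turned sign, and at 42, 47 and 52 °C 7, 8 and 5 of 30 did, none of them called. Of the values named by the rule above 10 turned or stood at 0, all in comparisons with 18 kHz: against untreated cells Atp2a3 (-0.18 and -0.65), Kcnab2 (-0.44) and Clcn3 (-0.68), against 1 kHz Atp2a3 (-0.60 and -0.18), Clcn3 (-0.59) and Kcnab2 (-0.48), and for 18 kHz set against 42 °C Atp2a3 (-0.15 and 0). Relative to the median of all probes the first 4 of these stood at 0.91, 0.44, 0.65 and 0.41, above 0.

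Array weights gave 10 and 9 calls for 18 kHz against untreated cells and 1 kHz, 5 and 14 at 42 and 52 °C, 3 and 4 between temperatures, and 5, 4 and 3 for differences between changes. With no detection filter, where all 344 members are tested, 0 and 1 were called for 18 kHz against untreated cells and 1 kHz, 1 and 4 at 47 and 52 °C and 2 for 47 against 42 °C. Probes detected on every array gave 0 at 42 °C, 0 for 47 against 42 °C, and 1 and 0 for 18 kHz set against 42 and 52 °C. One probe per gene gave 2 and 5 at 47 and 52 °C, 1 for 52 against 47 °C, and 1 and 0 for 18 kHz set against 42 and 47 °C. No background removal gave 0 at 42 °C and 0 for 18 kHz set against 52 °C, an offset of 50 and the trended prior gave 0 at 42 °C, and the deposited log2 table gave 2 for 47 against 42 °C. Fits of the compared arrays alone gave 0 for 18 kHz against untreated cells and 1 kHz, 2 and 4 at 42 and 52 °C and 0 for 52 against 47 °C. Without both dimmer 18 kHz arrays 1 was called against untreated cells and 1 against 1 kHz, and 1, 0 and 0 for 18 kHz set against 42, 47 and 52 °C.

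The beadchip as a block gave 1 and 0 calls for 18 kHz against untreated cells and 1 kHz and 0 at 42 °C. Within beadchip A1 12 were called for 18 kHz against 1 kHz, and within A2 0, as against untreated cells. Within B1 0, 1 and 3 were called at 42, 47 and 52 °C, within B2 0 at each, and 0 between temperatures in both. No label says that replicate numbers pair the samples. Deviations of same-numbered arrays correlated at -0.23 to 0.45 (batch A) and -0.43 to 0.15 (batch B), with 3 of 9 and 5 of 18 pairs over 0.1. They were not set against arrays of unlike number, so a pairing was not tested. With the replicate block 0 were called for 18 kHz against untreated cells and against 1 kHz, 5 at 52 °C, and 0 for 18 kHz set against 47 and 52 °C. Leaving out each array in turn gave 0 to 10 calls for 18 kHz against untreated cells, 0 to 7 against 1 kHz, 0 for 1 kHz, 0 to 1, 0 to 2 and 2 to 8 at 42, 47 and 52 °C, 1 to 2 and 1 to 6 between temperatures, and 2 to 5, 0 to 4 and 0 to 4 for differences between changes. Fits without an array kept the probes that passed the detection filter on the full batch. Signal over background limits Kcnq5, Kcnj14, Atp2b1, Atp2b2 and Cacna2d3, each undetected on some arrays of its comparison, and 3 arrays per group limit all calls.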
